A study of Mus musculus with 12 samples.

Results

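Lyz2, Spi1, C1qc, Mgl2, Pilrb1 and Pilrb2 are 6 genes of macrophages and other myeloid cells, and their RNA was measured here in cultures of T cells. They were 6 of 10707 genes that received counts once each entry of the deposited table had been laid, by its printed exon positions, on the exons of mouse build GRCm38 (GENCODE M21). Counts of entries that lay over at least 50 bp of the exons of exactly 1 gene, small RNAs aside, were summed per gene and are called placed counts. All 6 genes had 10 or more placed counts over the 12 libraries, as did 5910 genes in total. They were chosen by their placed counts in these libraries, which differed between genotypes after allogeneic stimulation, so values from the allogeneic libraries describe them and carry no test.

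T cells were purified from the spleen of WT mice and of PERK-cKO mice, labelled PERK-KO by the submitters, and stimulated in culture. PERK-cKO mice carry PERK fl/fl alleles with CD4-Cre on the B6 background, so PERK (Eif2ak3, a kinase that senses stress in the endoplasmic reticulum) is deleted in cells of the T lineage and not in myeloid cells. Allogeneic stimulation used antigen-presenting cells (APCs) of another strain for 4 days, and polyclonal stimulation used anti-CD3/CD28 antibodies for 3 days, as the series description has it. A second source gives the same duration for both. Each of the 4 groups had 3 libraries. WT and PERK-cKO T cells below name cultures by the T cells put in, and which cells made an RNA was not determined. Male and female mice were used, but the sex and age behind each group are not given in the sources used here, nor is a step that removed the APCs before RNA was extracted, and allogeneic APCs are described elsewhere as splenocytes depleted of T cells. The labels do not say that replicates came from separate mice, so p-values measure the spread between these libraries, which may be technical.

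Macrophages, monocytes and neutrophils develop from myeloid progenitors under the control of PU.1, the ETS-family transcription factor encoded by Spi1. They take up and digest particles with lysozyme (Lyz2), recognise opsonised material through complement C1q, of which C1qc encodes the C chain, and bind galactose-type sugars on glycoproteins with the lectin CD301b (Mgl2), which dendritic cells also carry. Pilrb1 and Pilrb2 encode activating paired immunoglobulin-like type 2 receptors, which signal through the adaptor DAP12. A spleen holds such cells beside its lymphocytes, and mature T cells are not known for making these products.

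Depth and cell identity were checked first. Libraries held 3132702 to 4631908 counts, of which 1568631 to 2327859 could be placed. Of 8 placed T cell markers, Thy1 had 4008 to 10249 counts per library and Lck, a kinase of the T cell receptor pathway, 1532 to 2885, whereas Cd6 had 2 to 28 and Cd8b1 4 to 53. Eif2ak3, the targeted gene, had 167 to 173 counts in WT and 121 to 155 in PERK-cKO allogeneic libraries (log2 fold change -0.49 ± 0.14 SE, edgeR adjusted p = 0.00756), and 85 to 152 against 76 to 116 in the polyclonal ones (-0.36 ± 0.19 SE, adjusted p = 0.171). The deleted part of the gene is not resolved by these counts. Counts of Y-linked genes (Uty, Kdm5d, Eif2s3y and Ddx3y, summed) were 3335 to 4716 in each WT allogeneic library and 0 in the other 9. In comparisons of WT with PERK-cKO allogeneic libraries, genotype and whatever sets these counts apart cannot be told apart, and the same holds for stimulation when WT allogeneic and WT polyclonal libraries are compared.

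The sequence that carried the Lyz2 counts lay in exon 1 of 4 of its principal transcript (ENSMUSG00000069516.8), on the minus strand at chr10:117282107-117282231 of GRCm38, and all 125 bases are coding. It is shown because Lyz1, a close copy of Lyz2, could share reads with it. Capitals mark the 13 bases at which Lyz1 differs, which leaves 89.6% identity.
Lyz2 exon: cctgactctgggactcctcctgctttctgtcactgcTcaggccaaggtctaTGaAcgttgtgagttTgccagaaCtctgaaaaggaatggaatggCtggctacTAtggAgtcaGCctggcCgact
Read pairs are counted only where they align to one place by default, but reads that miss these 13 bases could come from either gene.

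The promoters were searched for letters that PU.1 is known to prefer, GAGGAA and GGAAGT, on both strands. RefSeq (GRCm38.p6) gave 300 bases, 250 before to 50 after the start, for 5 of the 6 genes, and Spi1 was not among them. All 5 held GGAAGT, which 23.8% of 32851 mouse promoters of this length hold, and C1qc and Mgl2 also held GAGGAA, held by 28.3%. Either motif occurs in 43.4% of these promoters. Sequences run 5′ to 3′ along the gene, and capitals mark the motifs, written as the reverse complement where they lie on the other strand.
Lyz2 promoter, minus strand, chr10:117282223-117282522: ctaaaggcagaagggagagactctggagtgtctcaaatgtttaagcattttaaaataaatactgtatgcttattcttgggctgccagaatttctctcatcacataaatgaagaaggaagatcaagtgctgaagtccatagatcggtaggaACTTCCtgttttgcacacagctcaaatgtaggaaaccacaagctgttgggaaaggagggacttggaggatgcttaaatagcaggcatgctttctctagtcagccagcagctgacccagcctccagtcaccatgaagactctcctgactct
C1qc promoter, minus strand, chr4:136892865-136893164: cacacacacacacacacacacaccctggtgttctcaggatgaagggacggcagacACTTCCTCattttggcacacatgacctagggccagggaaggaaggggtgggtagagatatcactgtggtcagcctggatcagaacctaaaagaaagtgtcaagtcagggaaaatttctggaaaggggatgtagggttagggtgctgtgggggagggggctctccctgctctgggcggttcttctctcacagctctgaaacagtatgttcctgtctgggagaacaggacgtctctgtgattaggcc
Mgl2 promoter, plus strand, chr11:70130107-70130406: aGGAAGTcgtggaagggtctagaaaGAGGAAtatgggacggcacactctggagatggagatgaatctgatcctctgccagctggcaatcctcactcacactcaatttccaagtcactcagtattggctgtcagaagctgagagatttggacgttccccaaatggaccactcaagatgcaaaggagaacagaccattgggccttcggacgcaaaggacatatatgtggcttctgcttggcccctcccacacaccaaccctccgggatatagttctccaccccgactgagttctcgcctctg
In C1qc the motifs overlap at -195 and -193 bases from the start, and in Mgl2 they lie apart at -249 and -225. The single motif of Lyz2 began at -100. A match describes the letters and is no evidence of binding.

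Pilrb1 and Pilrb2 are neighbours on chromosome 5 and near copies, which matters for reading their counts. Their promoters were 97.3% identical, differing at 8 of 300 positions, given here in capitals, and both held GGAAGT at -51.
Pilrb1 promoter, minus strand, chr5:137858000-137858299: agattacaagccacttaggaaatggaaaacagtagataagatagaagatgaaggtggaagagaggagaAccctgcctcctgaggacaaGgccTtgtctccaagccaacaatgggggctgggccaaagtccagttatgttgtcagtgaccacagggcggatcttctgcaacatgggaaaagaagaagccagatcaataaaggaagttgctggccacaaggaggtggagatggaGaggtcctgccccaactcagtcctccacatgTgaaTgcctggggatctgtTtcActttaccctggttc
Pilrb2 promoter, minus strand, chr5:137871709-137872008: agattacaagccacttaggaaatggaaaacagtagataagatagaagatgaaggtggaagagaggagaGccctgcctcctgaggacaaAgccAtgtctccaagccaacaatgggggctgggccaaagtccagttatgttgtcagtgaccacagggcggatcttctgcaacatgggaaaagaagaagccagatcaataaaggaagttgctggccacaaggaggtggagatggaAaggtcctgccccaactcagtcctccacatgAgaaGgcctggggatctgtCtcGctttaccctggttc
The exon stretches that carried their counts (111 bp at chr5:137853140-137853250 for Pilrb1 and 91 bp at chr5:137866840-137866930 for Pilrb2) differed at 1 base. How counts divide between the 2 genes is therefore uncertain, and their sum is given as well. Both stretches lay in exon 1 of 2 of a transcript without coding sequence. Of their bases, 0 in Pilrb1 and 29 in Pilrb2 belong to the principal transcript, and 13 in each are coding in some transcript.

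Lyz2 had the most counts of the 6 genes upon allogeneic stimulation. The WT allogeneic libraries held 97, 77 and 108 placed counts and the PERK-cKO allogeneic libraries 1983, 2106 and 1643. The WT polyclonal libraries held 0 each, and the PERK-cKO polyclonal libraries 0, 2 and 1. The allogeneic groups did not overlap, and nearly all Lyz2 counts came from allogeneic cultures. Scaled to the placed total of each library (CPM), the means were 54.5 ± 8.14 (SD, n = 3) in WT and 971 ± 107 (n = 3) in PERK-cKO T cells, a ratio of 17.8 with a 95% counting interval of 15.7 to 20.01. Counting intervals here cover counting error only. A count of 0 in a WT polyclonal library still allows 3 counts, or up to 1.58 CPM in the library where this limit was highest.

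**Figure D1:**
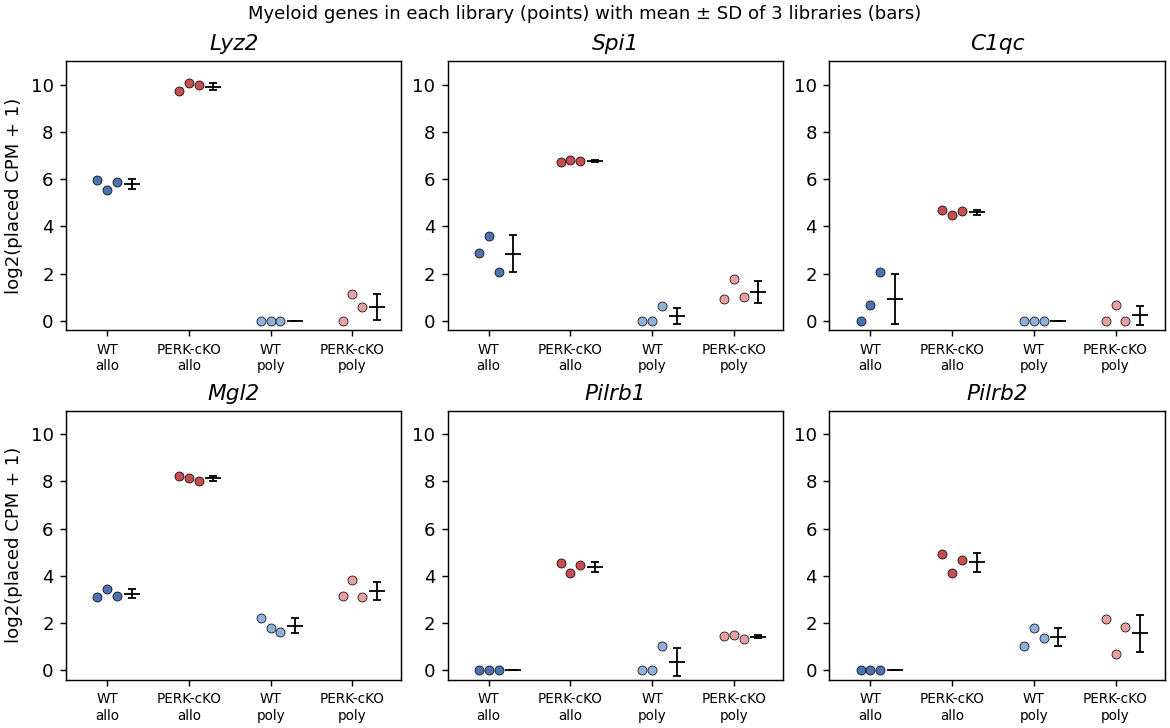
Level of each of the 6 myeloid genes in each of the 12 libraries, as log2 of CPM plus 1; points are libraries and bars the mean ± SD of 3. In all 6 panels the 3 PERK-cKO allogeneic libraries lie above the other 9, and Lyz2 is at 0 in the WT polyclonal libraries.

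Spi1 followed the same order at lower counts. WT allogeneic libraries held 10, 19 and 6 counts, PERK-cKO allogeneic 246, 221 and 177, WT polyclonal 0, 0 and 1, and PERK-cKO polyclonal 2, 4 and 2. In CPM no 2 of the 4 groups overlapped, although the polyclonal ones lay near 0. The mean was 6.88 ± 4.04 CPM (SD, n = 3) in WT and 108 ± 2.78 CPM (n = 3) in PERK-cKO allogeneic libraries, a ratio of 15.7 (counting interval 11.4 to 23.2). The counts came from 2 entries, one over 99 bp of Spi1 exon outside the principal transcript and one over 427 bp of Spi1 exons. The second lay partly in exon 1 of 5 (chr2:91096096-91096160 and chr2:91096571-91096890, plus strand, non-coding bases) and held 6 to 19 counts in WT against 165 to 229 in PERK-cKO allogeneic libraries. The first held 0 to 3 against 11 to 17, so both entries were higher in PERK-cKO.

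C1qc had the fewest WT counts among the genes found in that group. WT allogeneic libraries held 0, 1 and 6 counts and PERK-cKO allogeneic libraries 57, 42 and 39, while polyclonal libraries held 0, 0 and 0 (WT) and 0, 1 and 0 (PERK-cKO). WT replicate 3 alone gave 6 of 7 counts in its group. The means were 1.25 ± 1.69 and 23.1 ± 1.77 CPM (SD, n = 3 each), a ratio of 18.5 with a counting interval of 8.11 to 43.5. Without WT replicate 3 the fitted log2 fold change moved from 4.04 to 5.97. Of 842 bp of C1qc exon under this entry, 115 lie in coding exon 3 (chr4:136890485-136890599) and 727 in an exon of a non-coding transcript that is intron in the principal one (chr4:136891651-136892377), both on the minus strand. No entry could be placed on C1qa or C1qb, which encode the other C1q chains.

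Mgl2 had the highest ratio of means among the 4 genes with counts in WT allogeneic libraries, although the counting interval of C1qc covers it and C1qc was above it (5.97 against 4.98 log2, fitted) without WT replicate 3. WT libraries held 12, 17 and 15 counts against 706, 557 and 420 in PERK-cKO libraries, or 8.49 ± 1.33 and 280 ± 23.6 CPM (SD, n = 3 each). The ratio was 33.0 (counting interval 24.7 to 46.0), and that interval lies above the one of Lyz2. The counted stretch was 122 coding bases at chr11:70136687-70136808 on the plus strand, of which 90 belong to an exon of the principal transcript.

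Pilrb1 and Pilrb2 had 0 counts in all 3 WT allogeneic libraries. PERK-cKO allogeneic libraries held 52, 33 and 35 counts of Pilrb1 and 69, 33 and 40 of Pilrb2. With WT set at the limit of 3 counts per library, PERK-cKO libraries were at least 11.5-fold higher for Pilrb1, 13.5-fold for Pilrb2 and 25.0-fold for their sum. The entry over Pilra, the inhibitory partner of this receptor pair, also lies over Zcwpw1 and was left out of the placed counts; it had 19 to 20 counts in WT and 55 to 65 in PERK-cKO allogeneic libraries, and 21 to 30 and 24 to 30 in the polyclonal ones.

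Across all genes with 10 or more placed counts, 21.1% had PERK-cKO allogeneic libraries wholly above WT; the 6 of 6 found here follow from how the genes were picked. Levels of different genes can be set beside each other only per length. In PERK-cKO allogeneic libraries, CPM per kb of counted exon was 7771 ± 858 (SD, n = 3) for Lyz2 and 2295 ± 194 for Mgl2, then 259 ± 72.1 for Pilrb2, 206 ± 5.28 for Spi1, 181 ± 27.6 for Pilrb1 and 27.5 ± 2.10 for C1qc. Lyz2, Mgl2 and C1qc stood clear of their neighbours in this order, and the ranges of Pilrb2, Spi1 and Pilrb1 overlapped. For every gene, under 50% of the entry's length was exon of that gene, so reads from introns and flanks are counted as well and this order is rough.

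The polyclonal libraries share none with the allogeneic comparison, and 1 of the 6 genes, Mgl2, passed the expression filter there. It passed through the PERK-cKO libraries, where it is high, since each WT library had under 10 counts, so its test is no independent support. Mgl2 was higher in PERK-cKO than in WT polyclonal libraries. WT libraries held 7, 5 and 4 counts and PERK-cKO libraries 18, 22 and 15, with no overlap. The means were 2.75 ± 0.832 and 9.59 ± 3.07 CPM (SD, n = 3 each), a log2 fold change of 1.74 ± 0.43 SE (edgeR quasi-likelihood test, adjusted p = 0.00558 over 3941 genes). Of the 3941 genes, 31.8% passed this threshold, with 16% higher and 15.8% lower in PERK-cKO. With at least 10 counts required in every library, Mgl2 was not tested. A pooled counting interval for the ratio of 3.48 was 1.92 to 6.36.

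The other 5 genes were too low in the polyclonal libraries to pass the expression filter, and their counts are given as they are. Pilrb1 had 0, 0 and 2 counts in WT and 4, 3 and 3 in PERK-cKO libraries. Pilrb2 had 2, 5 and 3 against 8, 1 and 5, and these ranges overlapped. Higher values with no overlap between genotypes were seen for 3 of 6 genes (Spi1, Mgl2 and Pilrb1), where 17.3% of all genes showed this. With no filter (6803 genes tested), the adjusted p values of these 5 genes ran from 0.252 for Spi1 to 0.781 for Pilrb2, with log2 fold changes of 2.62 and 0.42. None of them passed.

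Comparing stimulations within a genotype, also as a description, all 6 genes were higher in PERK-cKO allogeneic than in PERK-cKO polyclonal libraries with no overlap (27% of all genes). In PERK-cKO cultures the ratio was 1707 for Lyz2 (counting interval 647 to 9172, on 3 polyclonal counts), 75.6 for Spi1 (40.2 to 185) and 29.2 for Mgl2 (23.2 to 40.4). In WT cultures, where the Y-linked counts differ with stimulation too, 3 of 6 genes were higher upon allogeneic stimulation with no overlap (24% of all genes). Lyz2 was higher by at least 35.2-fold, Spi1 with a ratio of 39.7 on 1 polyclonal count (6.61 to 1598) and Mgl2 with a ratio of 3.08 (1.71 to 5.87). Pilrb2 had 0 counts in WT allogeneic against 2, 5 and 3 in WT polyclonal libraries, and Pilrb1 0 against 2 in 1 library. For Pilrb2 the counting interval of the ratio of WT allogeneic to WT polyclonal was 0 to 0.502, but at the limit of 3 counts per library the groups would overlap; the interval for Pilrb1, 0 to 5.99, holds either direction.

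The make-up of the myeloid counts differed between stimulations. Summed over 3 libraries the 6 genes had 368 counts in WT and 8459 in PERK-cKO allogeneic cultures, but 29 and 91 in the polyclonal ones. Lyz2 gave 76.6% of the WT allogeneic and 67.8% of the PERK-cKO allogeneic counts. In polyclonal cultures Lyz2 gave 0% and 3.30%, and Mgl2 gave 55.2% and 60.4%. Together the genes were 0.136% to 0.146% of placed counts in PERK-cKO allogeneic libraries and 0.00641% to 0.00759% in WT allogeneic ones. In bulk RNA, fewer cells of a type and less RNA per cell cannot be told apart.

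**Figure D2:**
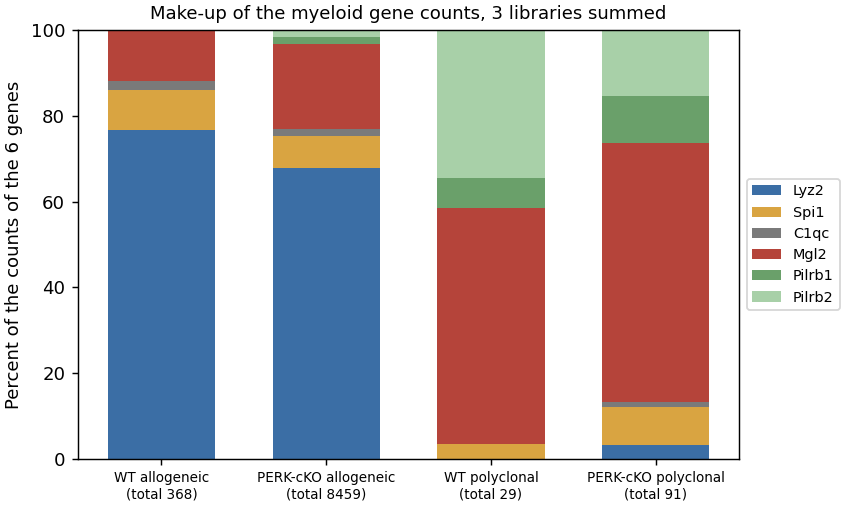
Percent of the placed counts of the 6 myeloid genes that each gene gave in each group, with 3 libraries summed and the total count under each bar. Lyz2 fills most of both allogeneic bars and Mgl2 most of both polyclonal bars, which rest on 29 and 91 counts.

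Likeness between the genes over the 12 libraries was described by Pearson's r of log2(CPM + 1), which rests on 4 groups and on libraries that share depth and cultures. It ran from 0.549 for Lyz2 and Pilrb2 to 0.958 for Lyz2 and Spi1. Among 4400 other genes the 10 most like Lyz2 had r of 0.986 to 0.996: Gpnmb (a glycoprotein of macrophages), Lilra6 (a leukocyte immunoglobulin-like receptor), Cdh1 (E-cadherin), Met (the receptor of hepatocyte growth factor), Herc6, Samd9l, Ifi208, Resf1, Gm14548 and Prss34 (a basophil protease). Gpnmb had 105 to 158 counts in WT and 862 to 1187 in PERK-cKO allogeneic libraries, and 15 to 18 and 18 to 20 in polyclonal ones. Prss34 had 154 to 170 and 3341 to 5251, then 0 to 2 and 9 to 13.

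The symbols in the deposited table do not lead to these values for 4 of the 6 genes. The table's positions follow GENCODE M27 on GRCm39, and the labels name mm10 (the same sequence build as GRCm38). Under its own symbol, Lyz2 had 0 to 6 counts in every library, Spi1 5 to 17 and C1qc 0, and the entry called Mgl2 had 7 to 42 and lay over exons of Dlg4. The counts described above came from entries listed as Gm32141 (Lyz2), Pacsin3 and Arfgap2 (Spi1), Gm13003 (C1qc) and Alox12 (Mgl2). Only Pilrb1 and Pilrb2 had entries that still lay on their own exons. Of an entry's length, 125 of 488 bp lay in Lyz2 exons, 842 of 2904 bp in C1qc, 122 of 4085 bp in Mgl2, and 111 and 91 of 1957 bp in Pilrb1 and Pilrb2.

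**Figure D3:**
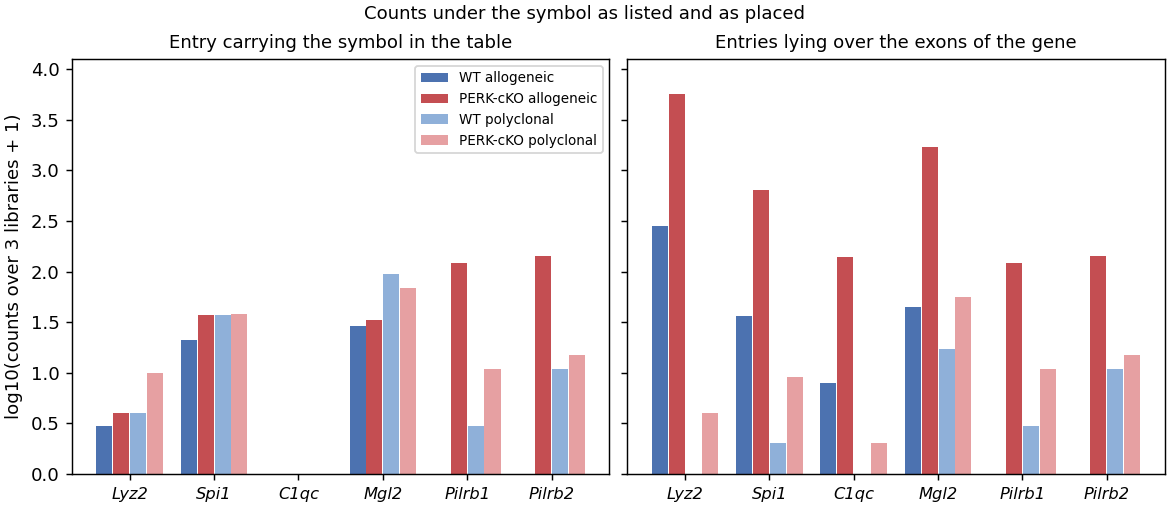
Counts of 3 libraries summed, as log10 of counts plus 1, for each gene and group, under the symbol as listed (left) and over the exons of the gene on GRCm38 (right). For Lyz2 the PERK-cKO allogeneic bar is 3 counts as listed and 5732 as placed, and for Pilrb1 and Pilrb2 both panels are the same.

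Other myeloid genes were taken from 6 lists of 128 genes that do not hold the 6 genes above. Of these 45 could be placed, 38 had 10 or more counts, and 32 passed the filter in the allogeneic comparison. There 27 of 32 rose and 1 fell in PERK-cKO libraries, where 18.5% of all tested genes rose and 14.7% fell. The median log2 fold change was 2.30, against -0.02 over all genes. Upon polyclonal stimulation 7 of 20 rose and 2 fell, where 16% of all tested genes rose and 15.8% fell, with a median of 0.08 against 0.00141. A gene can pass the filter through the group where it is high, so these counts describe the genes tested and not the lists. The same holds for each list below. Some listed genes that rose upon polyclonal stimulation had many counts in WT polyclonal libraries, where Lyz2 and C1qc had 0. Irf8 had 1206 to 1365 there, Ccl22 151 to 208 and Gusb 128 to 170, whereas Csf2rb had 4 to 12. Which cells made this RNA was not tested. The genotype effect differed between stimulations for 17 of 32 (16 more positive upon allogeneic stimulation), where the interaction was called for 33.8% of all genes. Allogeneic against polyclonal cultures gave 8 higher and 4 lower of 22 for WT (48.6% of all genes called) and 27 higher and 2 lower of 32 for PERK-cKO (51.4%).

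Of the macrophage and monocyte genes, 7 of 7 tested rose upon allogeneic stimulation. Trem2, a lipid receptor of macrophages, had 1, 0 and 0 counts in WT and 28, 19 and 18 in PERK-cKO libraries (log2 fold change 5.39 ± 0.75 SE, edgeR adjusted p = 4.18e-06). Mertk, a receptor for apoptotic cells, had 2, 2 and 0 against 75, 60 and 20 (4.92 ± 0.58, edgeR adjusted p = 3.78e-07). Both passed the filter through the PERK-cKO libraries, where they are high, so these p-values describe the values and are no independent support. Clec12a and Emilin2 rose by 5.18 and 3.32 on the same scale, and Clec12a, with 0, 1 and 0 counts in WT, passed the filter in the same way. Upon polyclonal stimulation 2 of 4 rose, Emilin2 by 1.48 ± 0.22 SE and Ly6c2, which marks inflammatory monocytes, by 1.11 ± 0.35 SE (edgeR adjusted p = 0.000125 and 0.0237). Clec4f, which marks Kupffer cells, had 0 counts everywhere, Cd163 had 1 count in 1 PERK-cKO polyclonal library, and Mrc1 had 9 to 13 counts in PERK-cKO allogeneic libraries and 0 to 1 elsewhere. Of the alternatively activated macrophage genes, where Mgl2 belongs by its use as a marker, Ccl22 and Fn1 both rose upon allogeneic stimulation (1.21 and 1.18 log2), and Ccl22 also upon polyclonal stimulation (0.53).

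Among complement genes 4 of 5 rose upon allogeneic stimulation: Itgax (CD11c, a chain of complement receptor 4) by 4.82, C5ar1 (the C5a receptor) by 4.45, C3 by 4.27 and Cfp (properdin) by 3.95 log2. C3, the central component, ran the other way upon polyclonal stimulation, with 41, 48 and 55 counts in WT and 4, 8 and 3 in PERK-cKO libraries (-3.25 ± 0.38 SE, edgeR adjusted p = 1.35e-05). It passed the filter there through the WT libraries, where it is high, so this p-value is no independent support. In the allogeneic libraries C3 had 13, 10 and 10 counts against 261, 253 and 220.

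Among partners and targets of PU.1, 7 of 9 rose and 1 fell upon allogeneic stimulation. The receptors Csf3r (for G-CSF) and Csf2rb (the common chain for GM-CSF, IL-3 and IL-5) rose by 5.21 and 4.20 log2 and Ptafr, the receptor of platelet-activating factor, by 4.04, whereas Ptpn6, the phosphatase SHP-1 that lymphocytes also make, fell by 1.39 (12, 16 and 15 against 13, 5 and 1 counts, edgeR adjusted p = 0.0406). Upon polyclonal stimulation 3 of 5 rose: Csf2rb by 2.69, Fgr by 0.85 and Irf8 by 0.40. Csf2rb had 6, 12 and 4 counts in WT against 66, 24 and 59.

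Of the phagocyte oxidase and lysosome genes 7 of 9 rose upon allogeneic stimulation, led by Cybb (the oxidase subunit gp91phox) at 3.86 and the cathepsins Ctsl and Ctsh at 2.87 and 2.72 log2. Upon polyclonal stimulation 1 of 6 rose, Gusb by 0.76, and 1 fell, Rac2 by 0.53, shares close to the 16% and 15.8% of all genes. The list of partners and ligands of the PILR receptors had 1 placed gene of 11 and none tested.

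**Figure D4:**
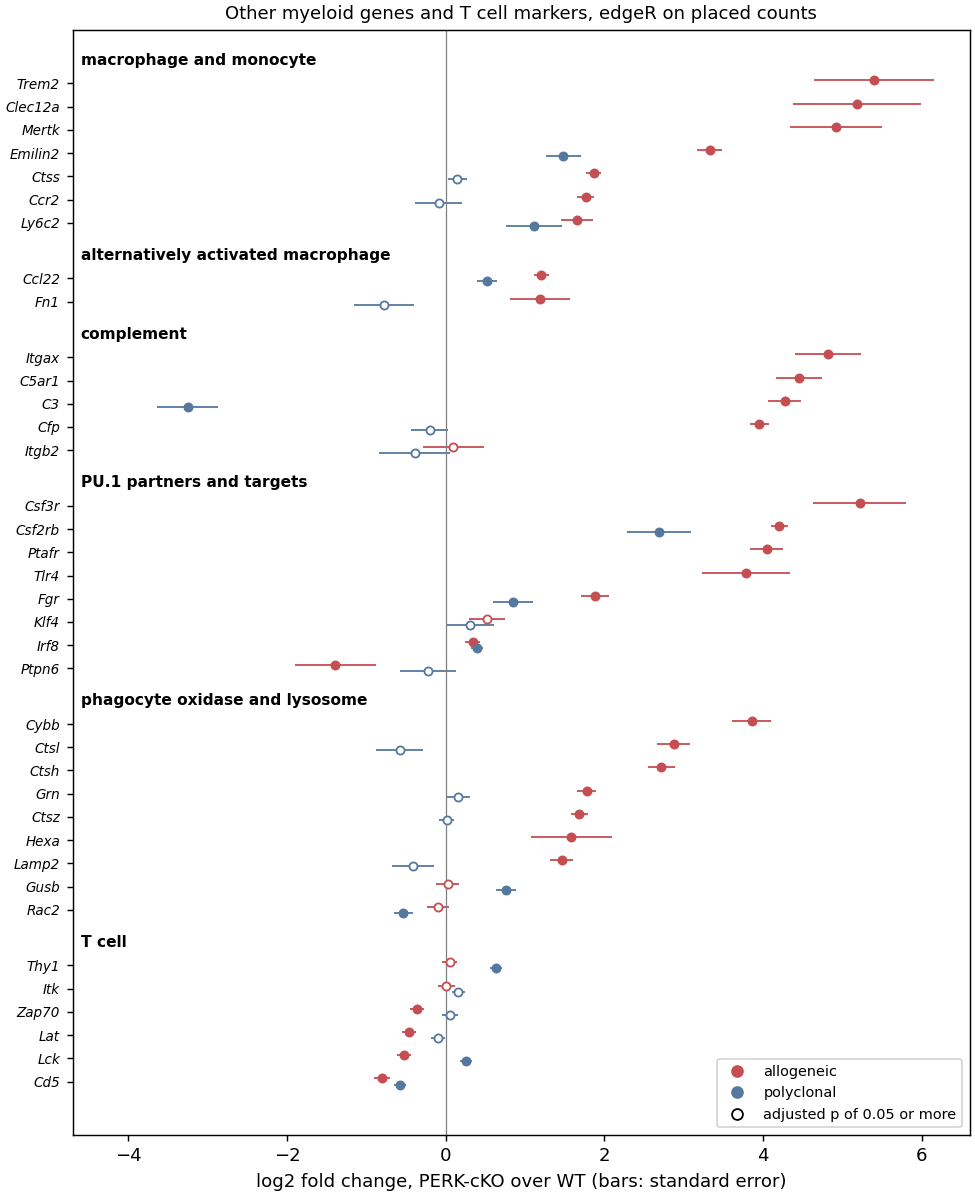
Log2 fold change of PERK-cKO over WT with its standard error for most of the listed myeloid genes and T cell markers tested in the allogeneic comparison (red), and the same genes upon polyclonal stimulation where tested (blue); filled points had an adjusted p under 0.05. Most red points of the myeloid genes are filled and lie right of 0, and C3 has its red point at 4.27 and its blue point at -3.25.

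Markers of other cells moved with the myeloid genes. Upon allogeneic stimulation 5 of 5 tested mast cell and basophil genes rose, where 18.5% of all tested genes rose. The summed level of the 8 placed genes was 138 to 153 CPM in WT and 2941 to 3180 CPM in PERK-cKO libraries. In polyclonal libraries it was 4.49 to 7.28 and 30.4 to 35.4 CPM. There 2 of 2 tested genes rose (16% of all genes), but both passed the filter through the PERK-cKO libraries. Fcer1a had 2, 1 and 0 counts in WT and Hdc 3, 4 and 12, so their rise is no independent support. Tpsab1, a mast cell tryptase, was at 0. Both tested B cell genes rose (Ms4a1 by 1.32 and Blk by 0.52 log2), summing to 90.05 to 118 CPM in WT and 193 to 223 CPM in PERK-cKO allogeneic libraries. The 1 placed neutrophil gene, Mmp8, had 4 to 6 counts against 233 to 307 (5.54 log2), and 1 of 3 dendritic cell genes rose (Relb, 0.70).

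T cell markers, summed over 8 genes, were at 6985 to 7065 CPM in WT and 6037 to 6632 CPM in PERK-cKO allogeneic libraries. Of 6 tested, 4 fell (Cd5 by 0.80, Lck by 0.52, Lat by 0.46 and Zap70 by 0.36 log2) while none rose. Of all tested genes, 14.7% fell and 18.5% rose. Upon polyclonal stimulation the sum was 4800 to 4943 CPM in WT and 6023 to 6350 CPM in PERK-cKO libraries. There 3 of 8 rose and 1 fell, where 16% of all tested genes rose and 15.8% fell. Of the fibroblast and endothelium genes 2 of 3 rose upon allogeneic stimulation, with Dcn and Pdgfra at 0. Upon polyclonal stimulation 1 of 2 rose and 1 fell, beside the 16% and 15.8% of all tested genes. Vwf (von Willebrand factor) had 0, 0 and 0 counts in WT against 14, 9 and 18 in PERK-cKO libraries, and Pecam1 fell by 0.44 log2. Vwf passed the filter through the PERK-cKO libraries, so its rise is no independent support. No gene of the natural killer cell or erythroid lists passed the filter. The part of these other cells in the myeloid values was not tested.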

How the data were processed

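Bulk RNA-Seq was analysed in 12 libraries, grouped by their labels. The authors deposited raw counts, made with featureCounts 2.0.1 on read pairs over exons by gene symbol (GENCODE M27, GRCm39), without a strand option; the labels name mm10, and the aligner is not given in the sources used here. Total counts were 3132702 to 4631908 per library. Of 53762 entries, 13393 were placed on GENCODE M21 (50.5% of counts); 34319 lay over no exon and 4932 over several genes. Placed counts were filtered by filterByExpr, TMM-normalized and fitted in edgeR (glmQLFit), with glmQLFTest as the quasi-likelihood test; Benjamini-Hochberg adjusted p under 0.05 was called. Versions were edgeR 4.0.16 and DESeq2 1.42.0 in R 4.3.3, and Python 3.11.15; the fit was tested on simulated counts. Genotypes were compared within the 6 libraries of a stimulation, and the interaction used all 12 libraries.

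Members and lists were chosen with earlier results of these data known. The genes named were the 6 members, list genes called (up to 4 per direction), Eif2ak3 and the 10 genes most like Lyz2 (1 listed gene is not reported here by name); markers given at 0 or by count, the Y-linked genes and the genes set beside a member were named after their values were seen. Every pair of replicates differed by more than sampling noise. Same-numbered replicates did not deviate together (r from -0.0983 to 0.0979), so libraries were not paired. Alternatives were DESeq2, RLE factors, other filters and overlaps, a fit with all libraries, a block for the replicate number, leaving out each library, robust spread and entries as listed; the last 2 were added after seeing the data.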

Additional observations from a re-analysis of the deposited data

Results flagged for a closer look

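The genotype effect differed between stimulations for 27 listed genes, tested by edgeR's interaction of genotype and stimulation over all 12 libraries, genes at 0 in a whole group aside (4406 genes, of which 33.8% were called; adjusted p from 1.65e-12 to 0.028 for these genes). Values are the log2 fold change upon allogeneic stimulation minus that upon polyclonal stimulation. Of 17 myeloid genes 16 were positive. C3 had 7.51, Itgax 5.23 and Cfp 4.14 among complement genes. Ctsl had 3.44, Ctsh 3.02, Hexa 2.35, Lamp2 1.86, Ctsz 1.66 and Grn 1.60 among lysosome genes, and Gusb had -0.746. Ccr2 and Emilin2 each had 1.83, Ctss 1.70, Fn1 1.94, Ccl22 0.665, Csf2rb 1.49 and Fgr 1.02. Among genes of other cells, the neutrophil gene Mmp8 had 7.93, the mast cell and basophil gene Hdc 2.23, the dendritic cell gene Relb 0.997 and the endothelial gene Pecam1 0.476. The 6 T cell genes were all negative: Lat -0.386, Zap70 -0.426, Thy1 -0.603, Lck -0.799, Cd6 -2.15 and Cd8b1 -2.21. Mmp8, Itgax and other genes with few counts outside the PERK-cKO allogeneic libraries passed the filter through that group, so their values are no independent support. The WT allogeneic libraries, which alone held Y-linked counts, enter each of these values.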

How the results depend on the processing

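No called direction of the 6 genes turned on placed counts. Mgl2 upon polyclonal stimulation stayed past the threshold in each alternative on placed counts that tested it. Its log2 fold changes were 1.48 to 1.97 when each library was left out. These tests reuse the libraries in which Mgl2 passed the filter through PERK-cKO, so they are no independent support. With entries as listed the log2 fold change of Mgl2 was -0.49 (edgeR adjusted p = 0.309), where the entry called Mgl2 lies over another gene. The replicate block gave 1348 called genes upon allogeneic, 1203 upon polyclonal stimulation, 1442 for the interaction, 1964 for stimulation in WT and 2031 in PERK-cKO T cells, and 27 and 7 higher myeloid list genes; Mgl2 kept its call upon polyclonal stimulation (1.74, edgeR adjusted p = 0.00981). Numbers shared by replicates do not pair these libraries, and most libraries did not correlate best with their own number. Requiring an entry to lie at least 50% inside its gene left none of the 6 genes and fewer genes to test: 400 of 1096 were called upon allogeneic and 339 of 1008 upon polyclonal stimulation, 396 for the interaction, 567 for stimulation in WT and 612 in PERK-cKO T cells, with 5 of 6 myeloid genes higher upon allogeneic and 0 of 3 upon polyclonal stimulation. Entries as listed gave 2734 and 2750 called genes, and 12 of 37 myeloid genes higher upon allogeneic stimulation. At least 10 counts in every library left 20 myeloid genes upon allogeneic stimulation, 16 of them higher, and removed Mgl2 from the polyclonal comparison. Leaving out each library gave 1141 to 1289, 985 to 1163, 1336 to 1426, 1716 to 1855 and 1976 to 2068 called genes for the comparisons in the order above, and 25 to 28 and 5 to 7 higher myeloid genes. The median over all genes in the DESeq2 fit was 0.215 for the interaction and 0.191 for stimulation in PERK-cKO T cells. Adding the entry over Pilra to Pilrb1 and Pilrb2 raised their 298 counts to 695.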
